A study of Mus musculus with 33 samples.

Results

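Beta defensins are small secreted peptides held together by disulfide bonds between cysteines. They kill bacteria at epithelial surfaces, and many are made in the epididymis, where they coat maturing sperm. Their genes arose by duplication and lie side by side in clusters. The 42 genes described here are all protein-coding genes on chromosomes 1 to 19 whose symbol is Defb followed by a number, out of 20661 protein-coding genes that RefSeq annotates there on GRCm38.p6 (mm10). Genes whose starts lie at most 200 kb apart were put in 1 cluster, which gave 6 clusters on 4 chromosomes. The rule uses names and positions, but the family was picked with earlier results of these data known.

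The study mapped H3K9me2, a histone mark of repressed chromatin, and Lamin B1, a protein of the nuclear lamina, by CUT&RUN, in which an antibody-guided nuclease releases the DNA it is bound to. The sources were a C57BL/6 embryonic stem (mES) cell line first plated on feeder fibroblasts and then kept in medium with LIF and 2 inhibitors, and whole hearts and right forebrain lobes of E11.5 embryos from wild-type C57BL/6 mice. H3K9me2 and Lamin B1 had 3 libraries each in every source, and IgG controls had 6 in heart, 6 in forebrain and 3 in mES cells, 33 in all. Tissue replicates were pools of different litters and mES replicates were different culture vessels, so a tissue map averages over embryos and over the cell types of the tissue. Versions of the CUT&RUN kit varied. The values come from the 9 lists of domains that the authors deposited, a LAD, a KOD and an open list per source.

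LAD stands for lamina-associated domain, a stretch of chromatin at the nuclear envelope. KOD is the depositors' own label, which the sources used here do not spell out. The lists hold whole 10 kb bins without any score, and no bin stood in more than 1 list of a source. Each list pools the replicates, so no value below has a replicate error or a test, and the depth behind a domain is unknown. The state of a gene is the list with the largest share of its body, and a gene counts as in no list where unlisted bases form the largest part. Expression was not measured. A state therefore does not say whether a gene was active, and the labelled tissues could not be checked against marker expression.

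Beta defensin genes were mostly LAD or KOD in every source, and which of these they were went by cluster. Of the 42 genes 23 were LAD in mES cells (16.5% of all protein-coding genes). The heart lists put 22 in LADs (14.2% of all), and those of the forebrain 22 (16.5% of all). KOD held 15, 12 and 16 genes in the same order, and 12.9%, 17.8% and 18.9% of all protein-coding genes. Open domains held 1 member of the mES map, Defb25, 4 of the heart map and 0 of the forebrain map, where they held 63.6%, 58.0% and 57.4% of all genes. In no list were 3, 4 and 4 members, and 7.04%, 9.99% and 7.21% of all genes.

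The LAD members all lay on chromosomes 1 and 8 and the KOD members all on chromosomes 2 and 14. No member was LAD in one source and KOD or open in another. Of all genes LAD in mES cells and listed in heart, 12.3% were open there and 2.59% KOD. In forebrain these shares were 9.45% and 2.48%. For each tissue 20 members could be compared in this way. Members that were LAD in one source and not in another were in no list there, which this comparison leaves out. A single state in all 3 sources was found for 31 members (60.4% of all genes), of which 19 were LAD (10.8% of all genes) and 12 KOD (5.90% of all genes). None was open throughout (43.7% of all genes). Since genes of a cluster share domains, these counts describe 6 places in the genome rather than 42 separate ones. In 5 of the 6 clusters the listed members had 1 state wherever they were listed, and the exception was the cluster on chromosome 2.

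**Figure D1:**
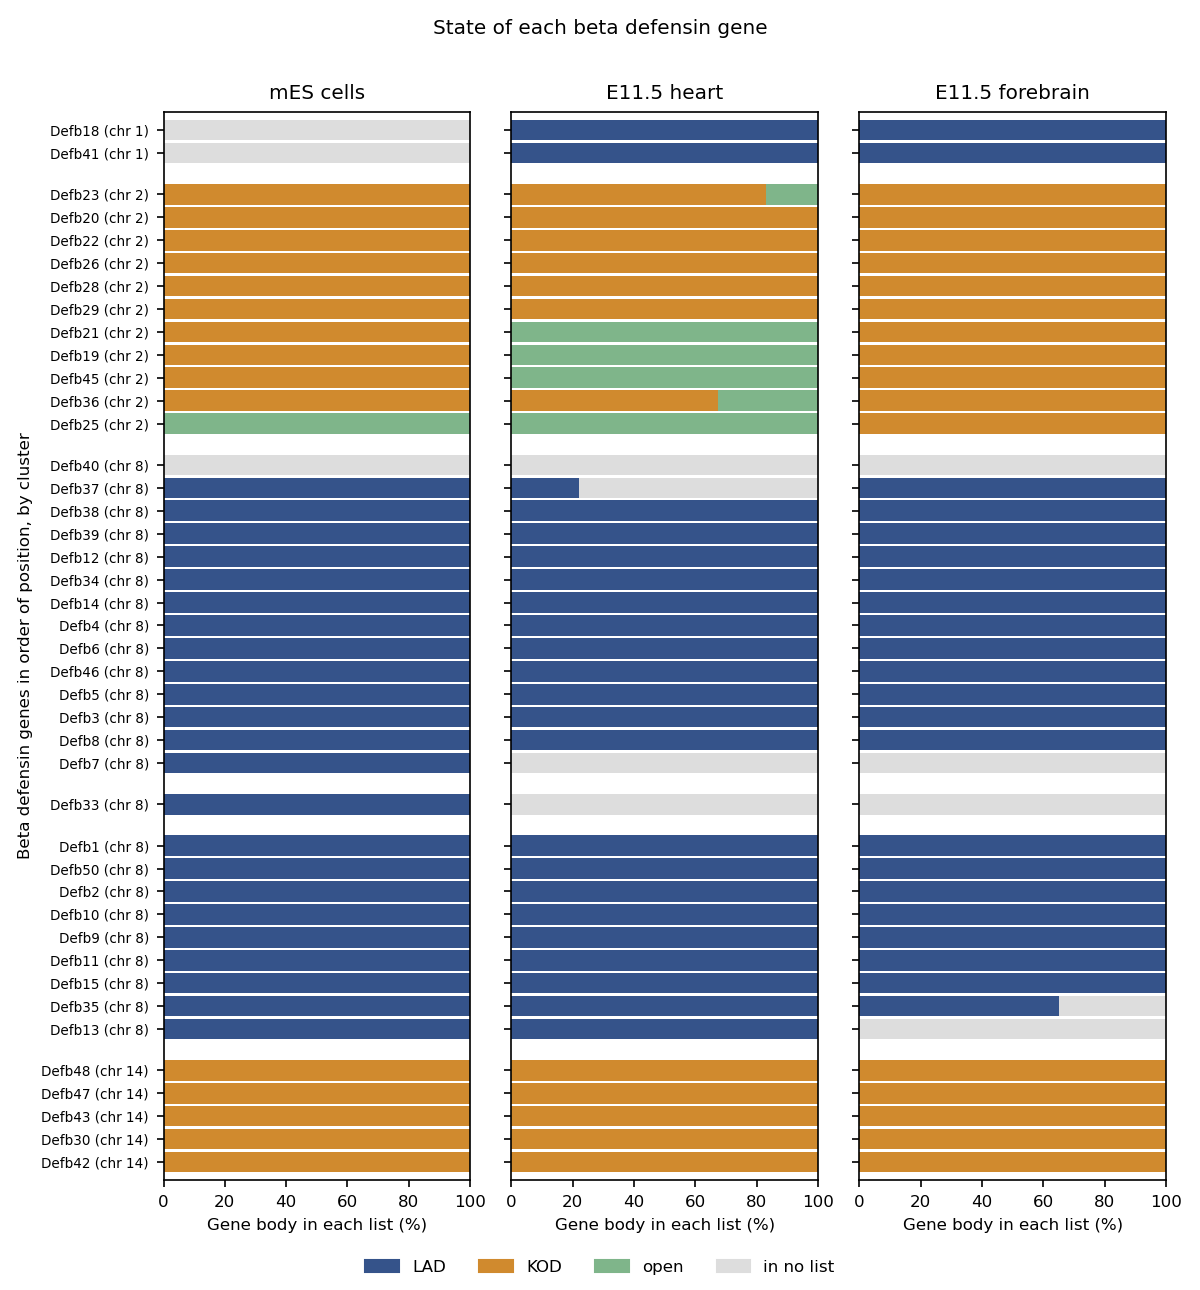
Share of each gene body (x axis, percent) in the LAD, KOD and open lists or in no list, for the 42 beta defensin genes in order of position (y axis), in mES cells, E11.5 heart and E11.5 forebrain. Genes on chromosomes 1 and 8 are LAD or in no list, genes on chromosomes 2 and 14 are KOD or open, and open bars stand on chromosome 2 alone.

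The starts of 2 genes are shown as examples of the 2 kinds of cluster, chosen after their states were seen. Defb3, which codes for an epithelial beta defensin induced by bacteria, was LAD in all 3 sources, and Defb45 was open in heart and KOD elsewhere. Each line holds the 250 bases before the annotated start in the direction of transcription, from RefSeq on GRCm38.p6, at chr8:19293111-19293360 on the plus strand for Defb3 and at chr2:152596486-152596735 on the minus strand for Defb45. Capitals mark CpG dinucleotides, the sites of most DNA methylation, of which Defb3 has 2 and Defb45 has 4.
Defb3: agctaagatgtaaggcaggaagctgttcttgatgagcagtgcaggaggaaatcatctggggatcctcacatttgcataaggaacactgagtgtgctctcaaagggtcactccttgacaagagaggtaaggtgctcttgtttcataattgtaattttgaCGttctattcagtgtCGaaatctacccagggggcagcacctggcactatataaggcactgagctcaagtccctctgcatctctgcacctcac
Defb45: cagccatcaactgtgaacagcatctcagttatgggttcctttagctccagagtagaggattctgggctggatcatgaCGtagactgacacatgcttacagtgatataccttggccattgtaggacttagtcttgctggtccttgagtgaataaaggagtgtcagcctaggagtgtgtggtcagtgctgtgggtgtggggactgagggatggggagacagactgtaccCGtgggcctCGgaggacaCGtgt

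The largest cluster, 14 genes from Defb40 to Defb7 on chromosome 8 (18974914 to 19497775, 523 kb), holds inducible epithelial defensins as well as genes of the epididymis. The 11 genes in a row from Defb38 to Defb8 were wholly LAD in mES cells, heart and forebrain. They include Defb4, Defb3 and Defb14, which code for defensins induced in skin and airway, and Defb12, Defb34, Defb38 and Defb39. Defb14 is the longest member at 35066 bases, and the median over all 42 members was 3215 bases, compared with 17491 bases over all protein-coding genes. Spag11b and Spag11a, which code for sperm-associated epididymal proteins, lie between Defb34 and Defb14 and were LAD in all 3 sources too.

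The LAD over this cluster began at nearly the same place in the 3 maps, at 18980001 in mES cells and forebrain and at 18990001 in heart. Defb40, the first gene (18974914 to 18978221), lay just outside and was in no list of any source, 1.78 kb from the LAD in mES cells and forebrain and 11.8 kb from the LAD in heart. Defb37, the next gene (18986233 to 18991055), was 100% LAD in mES cells and forebrain. In heart 21.9% of it was LAD and the rest in no list, so the single bin by which the LAD starts differ decides its state. Before the cluster an open domain ended at 18970000 (mES), 18930000 (heart) and 18960000 (forebrain), and the nearest gene on that side, Xkr5, was open in mES cells and forebrain. In heart 21.7% of Xkr5 was open and the rest in no list.

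The far end of the cluster differed between the stem cells and the tissues. The LAD ended at 19460000 in both heart and forebrain, whereas a LAD from 19420001 reached 19640000 in mES cells. Defb8 (19445769 to 19447606) was therefore LAD in all 3, at 12.4 kb from the LAD end in heart and forebrain. Defb7 (19495097 to 19497775) was 100% LAD in mES cells and in no list in heart and forebrain, 35.1 kb from the nearest listed domain in each. In mES cells the LAD was broken between Defb3 and Defb8, with a LAD ending at 19390000, one of a single bin from 19400001 to 19410000, and one starting at 19420001. Of the 523 kb of the cluster, LADs covered 95.2% (mES), 89.9% (heart) and 91.8% (forebrain), and all other bases were in no list.

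The second cluster of chromosome 8 holds 9 genes from Defb1 to Defb13 (21776555 to 21948622, 172 kb). Defb1 codes for the beta defensin that epithelia such as the kidney make without induction, and Defb2 for an inducible one. The 7 genes from Defb1 to Defb15 were wholly LAD in all 3 sources, namely Defb1, Defb50, Defb2, Defb10, Defb9, Defb11 and Defb15. The last 2 genes lay at a LAD end in forebrain, at 21940000. Defb35 (21938352 to 21940878) was 100% LAD in mES cells and heart and 65.3% LAD in forebrain. Defb13 (21946755 to 21948622) was 100% LAD in mES cells and heart and in no list in forebrain, 6.75 kb from the LAD.

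The domains around these 9 genes were of unlike length. In mES cells they stood at the end of a LAD of 1070 kb (20880001 to 21950000) with 43 protein-coding genes wholly inside, 10 of them beta defensins. In heart the LAD was 240 kb long (21740001 to 21980000) and held all 9 members and 2 other genes, Fam90a1a and Ccdc70. In forebrain it was 260 kb long (21680001 to 21940000) and held 7 members wholly and the alpha defensins Defa39 and Defa24. After the cluster an open domain began at 21960001 (mES), 22100001 (heart) and 21970001 (forebrain).

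Defb33 (chromosome 8, 20892667 to 20897723) is a cluster of its own, at the other side of the alpha defensin genes. It was 100% LAD in mES cells, 12.7 kb from the start of the LAD of 1070 kb named above. In heart and forebrain it was in no list. The nearest listed domain was a LAD from 20930001 in heart, 32.3 kb away, and an open domain ending at 20890000 in forebrain, 2.67 kb away. In heart an open domain ending at 20860000 lay nearly as close on the other side.

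The alpha defensins are the antimicrobial peptides of Paneth cells in the gut, and 28 numbered Defa genes lie between Defb33 and Defb1. All 28 were LAD in mES cells (16.5% of all protein-coding genes). In heart 15 were open (58.0% of all) and 13 in no list (9.99% of all). In forebrain 2 were LAD (16.5% of all) and 26 in no list (7.21% of all). The beta defensins on their far side, from Defb1 to Defb15, were LAD in all 3 sources. Defb33, on the other side, was in no list in either tissue. The 2 alpha defensins that were LAD in forebrain, Defa39 and Defa24, lay in the LAD that also held Defb1. The maps in the tissues thus did not divide strictly by family. Alpha defensin genes are also near copies of each other. Of 16 RefSeq windows at their starts, 15 matched that of another alpha defensin over at least 80% of bases, with a median best match of 100%. The part that reads of copied sequence have in these lists was not tested.

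At this cutoff of 80%, near copies were fewer among the beta defensins with a window. Of 29 members with a RefSeq window of 300 bases at the start, 4 had a best match of at least 80%. The median best match was 61.7%, and the median over all pairs was 46.7%. A best match is the highest of a gene's pairs, so a gap between these medians follows from the choice. The 4 are Defb3, Defb8, Defb46 and Defb5 of the first chromosome 8 cluster, where Defb3 and Defb8 matched at 89.7%. All 4 were LAD in every source, and where reads of these genes were placed is not known. Defb33, which was in no list in the tissues, had a best match of 57.0%, and Defb7 of 79.3%, with Defb8. Also below the cutoff followed Defb6 (79.0%), Defb10 and Defb11 (78.7% each) and Defb9 (75.7%). The 13 members without a window were not compared.

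The cluster of chromosome 1 holds 2 genes, Defb18 (18236402 to 18237476) and Defb41 (18250978 to 18265138), both known for expression in the epididymis. Both were 100% LAD in heart and forebrain and in no list of the mES map. Around them mES cells had a LAD ending at 18200000 and another starting at 18270001, so the genes sat in a gap of 7 unlisted bins, with Defb41 4.86 kb from the second LAD. The LAD that held them was 730 kb long in heart, with no other protein-coding gene wholly inside, and 1970 kb long in forebrain, where Defb18 lay 873 kb from the nearer end. Crisp4, which codes for an epididymal secreted protein and is the nearest gene before the cluster, was LAD in both tissues and, like the members, in no mES list. Why these bins are in no mES list was not tested.

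**Figure D2:**
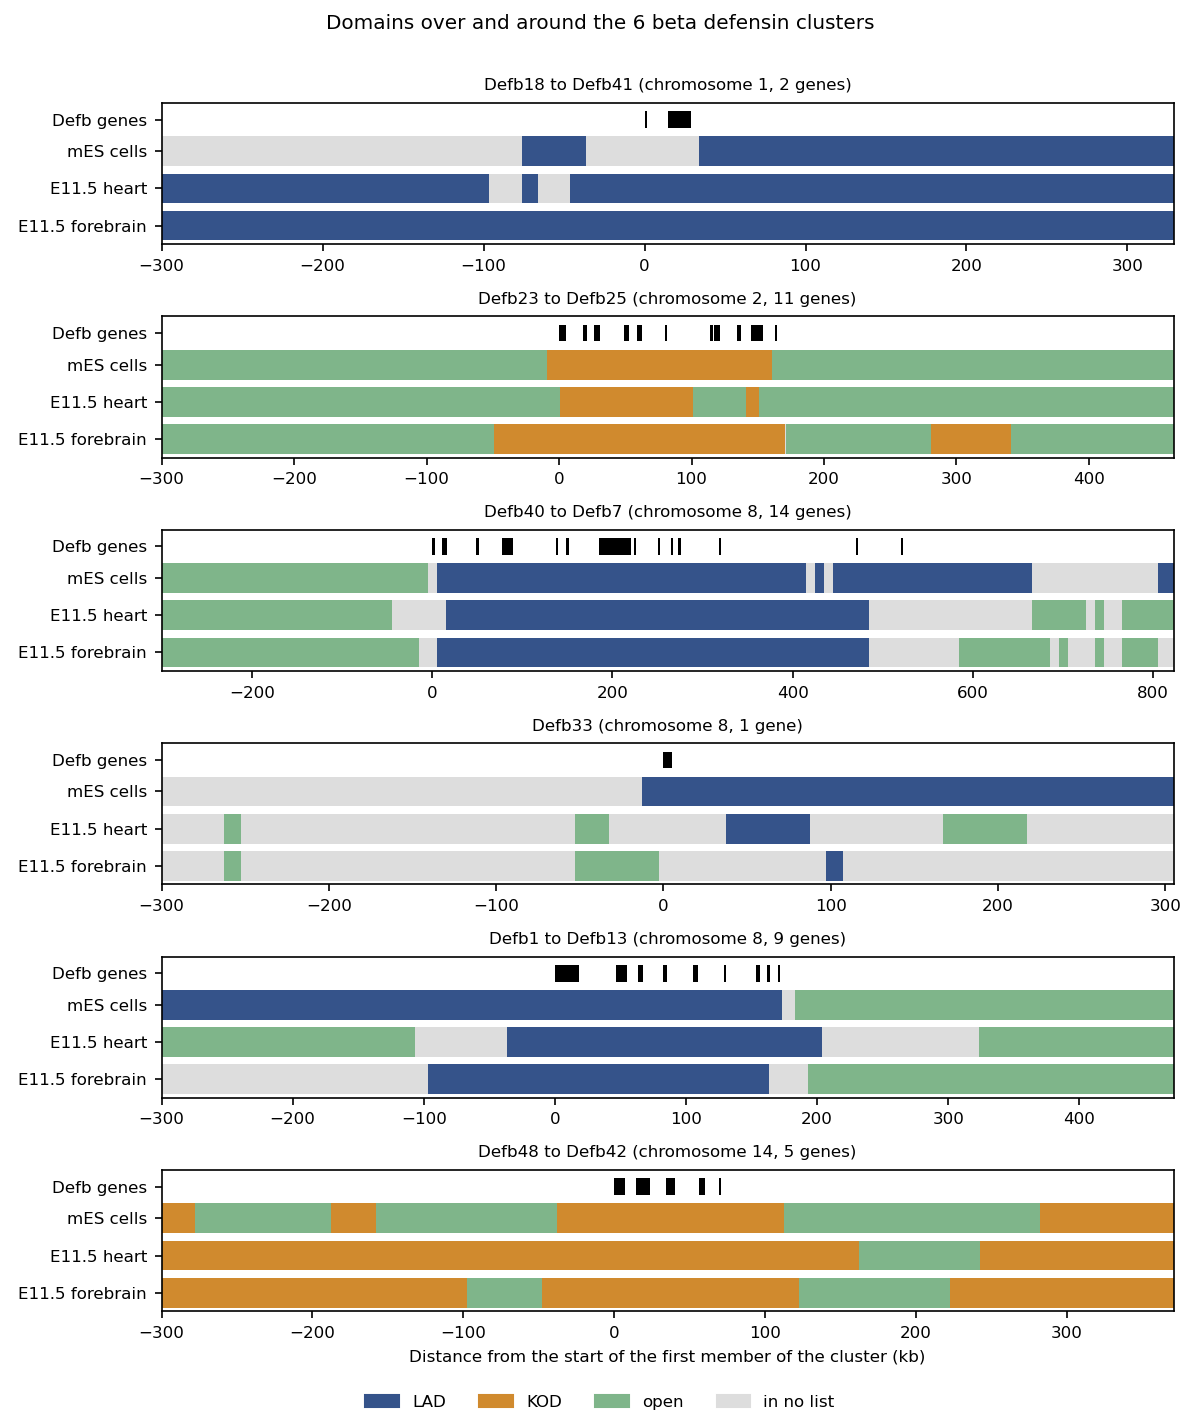
Deposited domains over the 6 beta defensin clusters and 300 kb on each side, with 1 row per source. The x axis is the distance in kb from the start of the first member, black marks are beta defensin genes, and grey is in no list. The KOD of chromosome 2 has open domains on both sides in all 3 sources, and in heart a 40 kb open domain lies inside it.

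On chromosome 2 the members formed a KOD between open domains. The cluster has 11 genes from Defb23 to Defb25 (152459055 to 152623053, 164 kb), among them Defb22, whose product coats sperm, Defb23 and Defb26, which act in sperm maturation, and Defb19, known for expression in the testis. In mES cells 10 of the 11 were wholly KOD, in a domain of 170 kb (152450001 to 152620000) that held these 10 and no other protein-coding gene. In forebrain all 11 were wholly KOD, in a domain of 220 kb (152410001 to 152630000) that also held Zcchc3 and 6820408C15Rik. In heart 7 were KOD and 4 open.

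The first 6 genes kept the KOD state in heart. Defb20, Defb22, Defb26, Defb28 and Defb29 were 100% KOD in each source, and Defb23, at the domain start, was 100% KOD in mES cells and forebrain and 83.0% KOD in heart with 17.0% open. The heart KOD over them ran from 152460001 to 152560000. It was followed by an open domain of 40 kb to 152600000, which held 3 genes and no others. Defb21 (152572743 to 152574944), Defb19 (152576086 to 152580312) and Defb45 (152593191 to 152596485) were thus 100% open in heart and 100% KOD elsewhere.

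Defb36 (152604327 to 152612729) was 67.5% KOD and 32.5% open in heart, where its KOD was a domain of a single 10 kb bin, and 100% KOD in the other sources. Defb25 (152622356 to 152623053), the last gene and with 698 bases the shortest member, was 100% open in mES cells and heart and 100% KOD in forebrain. It lay 2.36 kb from the border between KOD and open in mES cells and 6.95 kb from it in forebrain. The border moved by a single bin between these maps, from 152620000 to 152630000. Of the cluster, KODs covered 98.1% (mES), 67.1% (heart) and 100% (forebrain), and open domains the rest.

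Compared by pairs of sources, the members that differed in state were all of this cluster. Of 36 members listed in both mES cells and heart, 3 differed (19.6% of all genes listed in both), namely Defb21, Defb19 and Defb45, which went from KOD in the stem cells to open in heart (4.45% of all). These 3 are 20.0% of the 15 members that were KOD in mES cells, and of all genes KOD there and listed in heart 30.7% were open in heart. Of 36 members listed in both mES cells and forebrain, 1 differed (22.6% of all), Defb25, which was open in the stem cells and KOD in forebrain (13.1% of all). None of the 15 KOD members was open in forebrain (6.11% of all genes listed in both, and 42.9% of those KOD in mES cells). Of 37 listed in both tissues, 4 differed (15.2% of all), all KOD in forebrain and open in heart (6.49% of all). They are 25.0% of the 16 members KOD in forebrain, compared with 30.0% of all genes KOD there and listed in heart. The opposite direction, from open to KOD, could hardly occur among the members. A single member was open in mES cells and 0 in forebrain, so the shares of all genes that went from open to KOD in heart, 11.0% from mES cells and 5.48% from forebrain, have no counterpart here. The KOD members lie in 2 clusters, so none of these shares rests on separate cases. The 4 genes open in heart lay at most 16.1 kb from a domain end in heart, and the heart domain of 3 of them is the single 40 kb one. With 20 kb trimmed from all domain ends 0 members differed in each pair. This follows from the distances, since every open member lay less than 20 kb from a domain end and so became unlisted.

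The genes beside this cluster were mostly open. Of 28 other protein-coding genes within 500 kb, 25 (mES), 28 (heart) and 23 (forebrain) were open, and the remaining 3, 0 and 5 were KOD. The nearest gene before the cluster, 6820408C15Rik, was open in mES cells and heart and KOD in forebrain. The nearest after it, Rem1, which codes for a small GTPase, was 100% open in mES cells and heart. In forebrain it was 63.4% open and 36.6% KOD.

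The 5 genes of chromosome 14, Defb48, Defb47, Defb43, Defb30 and Defb42 (62977524 to 63048606, 71.1 kb), were 100% KOD in each source and made up the cluster with the fewest differences. Defb42 is an epididymal defensin. In mES cells their KOD was 150 kb long (62940001 to 63090000) and in forebrain 170 kb long (62930001 to 63100000), and in each it held the 5 members and no other protein-coding gene. In heart the KOD was 1730 kb long (61410001 to 63140000) and held 11 further genes. Only 0.437% of heart KODs are as long. The members lay 91.4 to 155 kb from its nearer end, compared with 37.5 to 71.8 kb in mES cells and 47.5 to 81.8 kb in forebrain.

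Of 13 other genes within 500 kb of the chromosome 14 cluster, 5 (mES), 11 (heart) and 8 (forebrain) were KOD, and the others were open. The nearest gene before it, Wdfy2, was 100% KOD in heart and 82.6% open in the stem cells. In forebrain it was 59.6% KOD and 40.4% open. The nearest after it, Ctsb, the gene of the lysosomal protease cathepsin B, was 74.8% KOD in heart and open elsewhere. The nearest gene on each side thus differed in state between sources while the members did not. In mES cells and forebrain an open domain lay directly before the KOD of the cluster, and in heart the KOD ran on through Wdfy2.

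**Figure D3:**
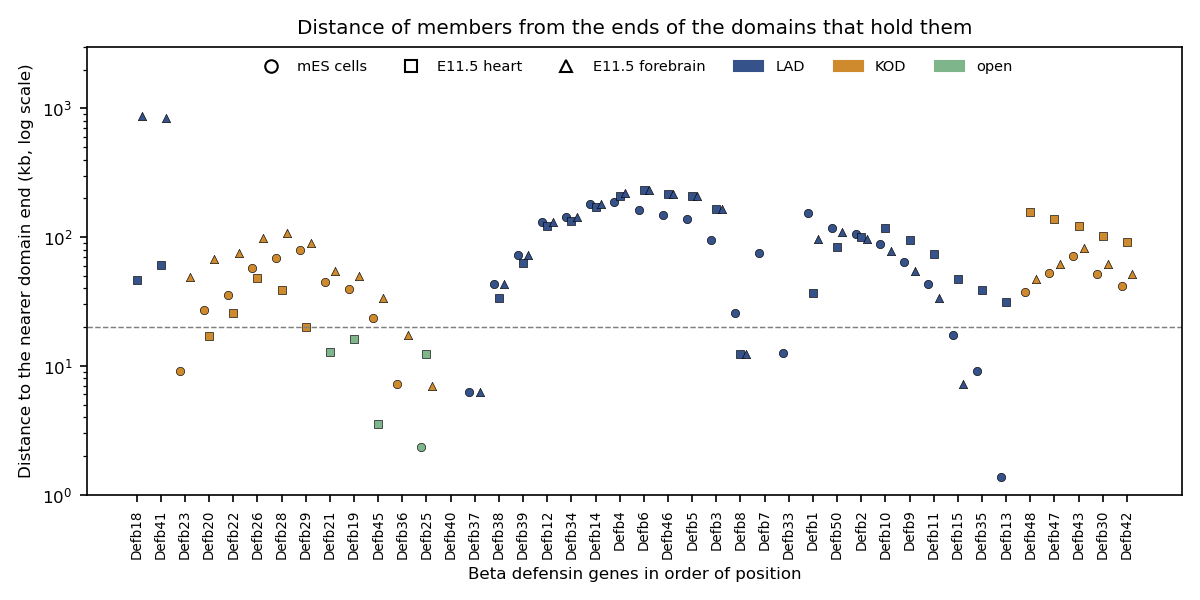
Distance in kb (log scale) from each beta defensin gene that lies wholly inside a domain to the nearer end of that domain, with circles for mES cells, squares for heart and triangles for forebrain, coloured by state. The dashed line is at 20 kb. The chromosome 1 genes in forebrain lie deepest, up to 873 kb, and the open genes of chromosome 2 all lie below the line.

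Members lay at unlike depths in their domains. For LAD members the median distance to the nearer end was 88.0 kb (mES, 23 genes), 89.1 kb (heart, 22 genes) and 109 kb (forebrain, 21 genes wholly inside). For KOD members it was 41.4 kb (mES, 15 genes), 69.6 kb (heart, 10 genes wholly inside) and 58.6 kb (forebrain, 16 genes). The open members lay at 2.36 kb in mES cells (1 gene) and at 3.52 to 16.1 kb in heart (4 genes). Among LAD members Defb6, which stands in the middle of the first chromosome 8 cluster, was deepest in heart at 232 kb, and Defb13 was nearest to an end in mES cells at 1.38 kb.

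Sequence at the gene starts was compared next, as a feature that the choice of genes did not use. RefSeq windows from 250 bases before to 50 after the start were found for 29 of the 42 members, with 30 windows since Defb21 has 2. Defb1, Defb2, Defb4, Defb12, Defb14, Defb18, Defb19, Defb25, Defb34, Defb35, Defb37, Defb40 and Defb50 had no window in the table used. In all 30 windows and each source the window had the same state as the gene body. With bins of 10 kb this was likely beforehand, since the windows lie at the gene starts.

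The windows held few CpG dinucleotides, with 0 to 8 each and a median of 1.5. The median over 20084 windows of protein-coding genes was 14. Of the 30 member windows 0 held 10 or more, compared with 57.9% of the windows of protein-coding genes. In the clusters of chromosomes 1 and 8 the median was 1 (15 windows) and in those of chromosomes 2 and 14 it was 3 (15 windows). Over all genes LAD in every source it was 2, over those KOD in every source 5, and over those open in every source 20. The highest member counts, 8, were at Defb36, Defb47 and the second start of Defb21, and the highest on chromosomes 1 and 8, 6, at Defb13 and Defb15. The GC content of the member windows ranged from 29.7% at Defb41 to 56.7% at Defb29, with a median of 48.3%.

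**Figure D4:**
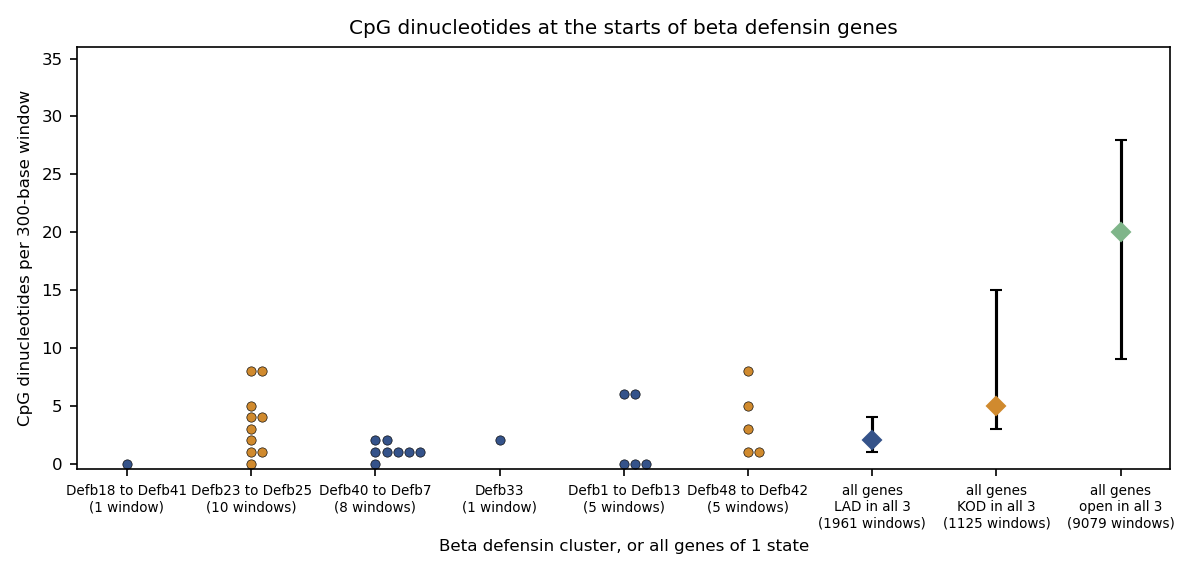
CpG dinucleotides (y axis) in each 300-base RefSeq window at the starts of beta defensin genes, by cluster, with 1 point per window, blue for clusters on chromosomes 1 and 8 and orange for those on chromosomes 2 and 14. Diamonds with bars are the median and the middle 50% of windows of all protein-coding genes that were LAD, KOD or open in all 3 sources, where the medians are 2, 5 and 20.

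Motifs were searched on both strands of the 300-base windows, and no member window held both of them. The letters TATAAA stood in 5 of 30 member windows and in 12.7% of the windows of protein-coding genes. On chromosomes 1 and 8 they stood in 2 of 15 member windows, compared with 34.1% over genes LAD in every source. On chromosomes 2 and 14 they stood in 3 of 15, compared with 15.3% over genes KOD in every source. The NF-kB consensus, the site of the factor that induces several epithelial defensins, stood in 2 of 30, those of Defb28 and Defb6. It stood in 9.42% of the windows of protein-coding genes, 4.23% over genes LAD in every source and 9.16% over those KOD in every source. Among 16 alpha defensin windows TATAAA stood in 15 and the NF-kB consensus in 0. Such matches describe letters in these windows and are not shown to be sites.

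Other families of host defence were given states in the same way. The whey acidic protein family, protease inhibitors of epithelia and the epididymis, has 20 genes in the list used, with Slpi and Eppin. Of these 14 (mES), 18 (heart) and 16 (forebrain) were KOD (12.9%, 17.8% and 18.9% of all protein-coding genes). In the same order 0 were LAD in any source (16.5%, 14.2% and 16.5% of all), and the rest were open (63.6%, 58.0% and 57.4% of all). Nearly all of these genes lie near each other on chromosome 2 or chromosome 11, so the counts do not rest on separate places. Wfdc12 and Wfdc2 were KOD in heart and open elsewhere, and Wfdc3 and Wfdc21 were KOD in both tissues and open in the stem cells.

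Of 17 antimicrobial proteins of other families 16 matched a gene on these chromosomes. In the order mES, heart and forebrain, LADs held 5, 7 and 7 of them, KODs 2, 1 and 2, and open domains 6, 7 and 7. The LAD shares were 31.25%, 43.75% and 43.75%, compared with 16.5%, 14.2% and 16.5% of all protein-coding genes. For KODs they were 12.5%, 6.25% and 12.5% (12.9%, 17.8% and 18.9% of all). For open domains they were 37.5%, 43.75% and 43.75% (63.6%, 58.0% and 57.4% of all). Several of the LAD genes lie near each other on chromosome 6 or chromosome 3, so the LAD shares do not rest on separate places. Ltf, the gene of lactoferrin, was open in heart and KOD elsewhere. Lyz2, the macrophage lysozyme gene, was open in forebrain and KOD elsewhere, and Bpi was KOD in forebrain and open elsewhere. S100a9, which codes for a calprotectin subunit, was LAD in both tissues, and S100a8, its partner, was LAD in heart and open in forebrain. Neither was in an mES list.

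Of 22 receptors and inducers of beta defensins 21 matched. In the same order 3, 4 and 4 were LAD, 10, 10 and 12 open, and 8, 6 and 3 KOD. The LAD shares were 14.3%, 19% and 19% (16.5%, 14.2% and 16.5% of all protein-coding genes). For open domains they were 47.6%, 47.6% and 57.1% (63.6%, 58.0% and 57.4% of all). For KODs they were 38.1%, 28.6% and 14.3% (12.9%, 17.8% and 18.9% of all). Tlr1 and Tlr6, receptors for bacterial lipoproteins, were open in forebrain and KOD elsewhere, and Tlr2 was open in both tissues and KOD in the stem cells. Nod2, a sensor of bacterial cell walls, was KOD in forebrain and open elsewhere. Il1r1, the interleukin-1 receptor gene, was open in forebrain and KOD elsewhere, and Il17a, the gene of a cytokine that induces defensins, was LAD in both tissues and open in the stem cells. Ccr6, the chemokine receptor that beta defensins can bind, was open in all 3 and is named after its state was seen.

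**Figure D5:**
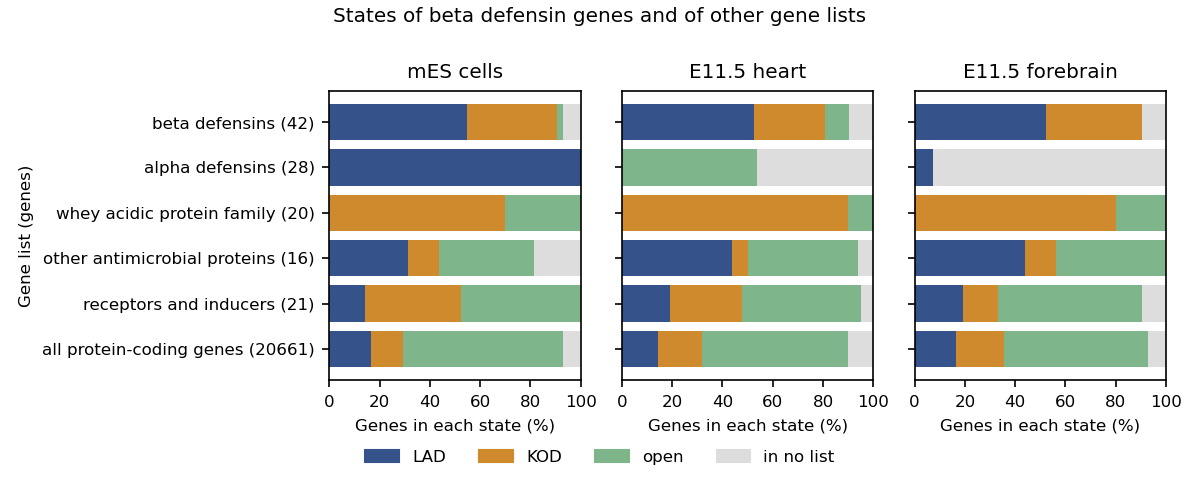
Share of genes (x axis, percent) that were LAD, KOD, open or in no list in mES cells, E11.5 heart and E11.5 forebrain, for beta defensins, 4 other gene lists and all protein-coding genes, with the number of genes in brackets. Beta defensins are LAD or KOD in nearly all listed cases, alpha defensins are all LAD in mES cells, and whey acidic protein genes are KOD or open.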

How the data were processed

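The tools were Bowtie2 2.5.0 with mm10, cutadapt 4.2, Trim Galore, deepTools and Picard, per the submitters' processing notes. The domain caller, its thresholds and the use of IgG are not given in the sources used here. The authors deposited the domains as positions in whole 10 kb bins, pooled over replicates, with no score. A domain can be longer through deeper libraries or a looser threshold, and bins with few placed reads can drop out of every list. Signal tracks were not analysed here.

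States were computed with Python 3.11.15, numpy 2.4.6 and pandas 2.3.3 from the share of each RefSeq gene body in each list, tested on simulated data with known states. Window identity is the matching bases of a global alignment with free ends (Biopython 1.88) over 300 bases. Figures used matplotlib 3.10.9. No test was run, since each state has 1 pooled list per source. The members and gene lists were chosen with earlier results of these data known. Every member is accounted for by cluster. Other genes named are nearest genes beside a cluster, those inside it, and at most 6 per list that differed between sources. The nearest genes after Defb7 and on each side of Defb33 were left unnamed. Other genes sharing a domain with members, and S100a8, S100a9 and Ccr6, were named after their states were seen. Proteins were not analysed here.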

Additional observations from a re-analysis of the deposited data

How the results depend on the processing

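No paired analysis was possible because each deposited list pools the replicates. For the same reason no replicate could be left out, and depth limits cannot be given. The domains carry no score, so their length was used for a stricter choice. Reading the state at the gene midpoint, or asking for at least 50% of the gene, gave the same counts. With 20 kb trimmed from domain ends, the members in no list were 11 (mES), 12 (heart) and 9 (forebrain). In that setting 0 were open in mES cells or heart, and 0 differed in each of the 3 pairs. Both values of 0 were fixed by the trim, since every open member lay less than 20 kb from a domain end. Without domains under 100 kb, 1 member was open in heart and 8 were in no list there, 0 differed between mES cells and heart, and 1 between forebrain and heart. With 50 kb added on each side of a gene, 2 members were in no list in forebrain, and Defb36 was open in heart. Taking the largest list whatever is unlisted, an alternative chosen after seeing the data, made Defb37 LAD in heart. With starts at most 100 or 500 kb apart, there were 7 and 6 clusters, of which 6 and 5 had 1 state.

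Leaving out each cluster in turn, LAD members numbered 10 to 23 (mES), 11 to 22 (heart) and 10 to 22 (forebrain). KOD members were 5 to 15, 5 to 12 and 5 to 16, open ones 0 to 1, 0 to 4 and 0 to 0, and those in no list 1 to 3, 1 to 4 and 2 to 4. Members that differed were 0 to 3 between mES cells and heart, 0 to 1 between mES cells and forebrain, and 0 to 4 between forebrain and heart. Each 0 among these differences is the value without the cluster on chromosome 2.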
